A study of Mus musculus with 6 samples.

Results

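Toll-like receptors (TLRs) are the membrane proteins with which macrophages sense microbial and nucleic acid ligands, and 10 of their genes in the mouse, *Tlr1* to *Tlr9* and *Tlr13*, were compared here between PP2Ac-KO and PP2Ac-WT bone marrow-derived macrophages (BMDM). The genes were taken by symbol from the deposited counts, with no threshold on their values, and all 10 were found among 55453 gene symbols. The family itself was chosen with earlier results of these data known. *Tlr11* and *Tlr12*, the other mouse TLR genes, were not among them and are given separately. The RNA-Seq holds 6 libraries from C57BL/6 mice, 3 labelled PP2A KO and 3 labelled Wild Type, of poly(A) RNA from macrophages grown from bone marrow. PP2Ac-KO mice carry loxP sites around the first exon of *Ppp2ca*, the gene of the catalytic subunit of protein phosphatase 2A, and *cre* under the *LysM* promoter, which is active in myeloid cells. WT mice carry neither allele and came from a vendor, while the PP2Ac-KO mice came from another laboratory's colony, so that genotype and colony cannot be told apart. The study used young mice of both sexes and describes this RNA-Seq as done after treatment with the STING agonist cGAMP. The labels give no treatment, age or sex, no untreated library was analysed, and nothing says whether the libraries of a group came from separate mice, so p-values measure the spread between these libraries.

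TLR1, TLR2, TLR4, TLR5 and TLR6 sit at the cell surface and bind lipopeptides, lipopolysaccharide and flagellin. TLR3, TLR7, TLR8, TLR9 and TLR13 are carried to endosomes by the chaperone UNC93B1 and bind RNA or DNA. All signal through the adaptor MyD88 except TLR3, which uses TRIF, and TLR4, which uses both. Several of the receptor genes, *Tlr3* among them, are known to be induced by interferon in macrophages.

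In PP2Ac-KO BMDM, 7 of the 10 receptor genes were higher than in PP2Ac-WT at an FDR under 0.05, and 0 were lower. The largest increase was in *Tlr3*, 3.13-fold, followed by *Tlr9* and *Tlr2* at 2.11-fold and 2.10-fold, and smaller ones were in *Tlr7*, *Tlr1*, *Tlr6* and *Tlr8*. *Tlr4*, *Tlr5* and *Tlr13* did not pass the test. All 10 passed the filter on low counts, with at least 816 reads in each library. Of the 13680 genes tested, 18.1% were higher and 19.0% lower at the same FDR. Among the 5422 genes with a mean count at least that of the lowest receptor, a background chosen after the values were seen, 30.7% were higher and 14.6% lower. The share of 7 in 10 lay above both, but the family was not tested as a set, since it was chosen with earlier results known. With the replicate number as a fit term, 8 receptors were higher, against 24.4% of all genes, and 0 were lower, against 26.4%. With upper-quartile scaling, 6 receptors were higher, and the share of all called genes that were higher moved from 48.7% to 38.4%. Where a change beyond 1 on the log2 scale and an FDR below 0.01 were asked for, 3 receptors were higher (*Tlr2*, *Tlr3* and *Tlr9*), against 3.36% of all genes, and 0 were lower, against 2.99%. In bulk RNA, a change in the number of cells of a type and a change of RNA per cell cannot be told apart.

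Library totals ran from 35257156 to 47390899 counts. *Ppp2ca* was counted at 33 to 47 reads in PP2Ac-KO and 8279 to 10654 in PP2Ac-WT, a log2 ratio of PP2Ac-KO over PP2Ac-WT (log2FC) of -7.67 ± 0.10 (SE, adjusted p = 3.17e-10). All adjusted p-values come from edgeR's quasi-likelihood fit over the tested genes, after Benjamini and Hochberg. The macrophage markers *Adgre1*, *Cd68*, *Csf1r*, *Itgam*, *Mertk*, *Fcgr1* and *Mrc1* all had at least 3599 counts per library, and 2 of these 7 (*Fcgr1* and *Mertk*) were higher in PP2Ac-KO, as was *Csf1r* with the replicate number as a fit term (adjusted p = 0.0028, and 0.0976 without). Their sum was 7434 to 7630 CPM across the PP2Ac-KO libraries, against 6360 to 6971 CPM across those of PP2Ac-WT. Markers of B cells, which express *Tlr9* and *Tlr7*, summed to at most 1.34 CPM in any library, and those of neutrophils to at most 0.939 CPM. Of the markers of plasmacytoid dendritic cells, the cells best known for *Tlr7* and *Tlr9*, *Siglech* had 12 to 29 counts and *Ccr9* 7 to 24, while *Tcf4* was abundant and higher in PP2Ac-KO with *Siglech*. Of the 4 markers of conventional dendritic cells, *Clec9a* (8 to 54 counts) was higher, and *Xcr1* had at most 3 counts. *Flt3* (8 to 36 counts) did not pass (adjusted p = 0.791), and *Zbtb46* (3 to 21 counts) was not tested. All 4 fibroblast markers were lower in PP2Ac-KO, with a sum of 22.7 to 33.4 CPM against 74.9 to 118 CPM in PP2Ac-WT, and the part of these cells in the receptor values was not tested. *Tlr7*, *Tlr8* and *Tlr13* lie on the X chromosome. *Xist* had at most 3 counts in any library and the Y-linked *Ddx3y* at least 2070, so the 6 libraries did not differ in the number of X chromosomes that these genes mark.

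Levels of different receptors were compared per kilobase of exon, as RPKM, here the TMM-scaled CPM of a gene divided by its exon length in kilobases. In PP2Ac-WT BMDM, *Tlr8* had the highest level, 108 ± 16.3 RPKM (SD, n = 3), followed by *Tlr2* at 91.7 ± 6.00, *Tlr13* at 64.7 ± 3.95, *Tlr7* at 34.7 ± 6.07 and *Tlr9* at 34.3 ± 5.64 RPKM. *Tlr4*, *Tlr3*, *Tlr1*, *Tlr6* and *Tlr5* followed, from 20.1 ± 2.62 down to 6.46 ± 2.08 RPKM. Within this order the library values overlapped for *Tlr7* and *Tlr9*, for *Tlr4* and *Tlr3*, for *Tlr1* and *Tlr6*, and for *Tlr6* and *Tlr5*. In PP2Ac-KO BMDM, *Tlr2* was first at 193 ± 12.1 RPKM and *Tlr8* second at 135 ± 5.26 RPKM, and the 3 libraries of each did not overlap. Of the receptors behind them, *Tlr9* had 72.5 ± 15.7, *Tlr13* 64.8 ± 2.09, *Tlr7* 55.5 ± 3.17 and *Tlr3* 55.5 ± 5.98 RPKM, with overlap between *Tlr9* and *Tlr13* and between *Tlr7* and *Tlr3*. *Tlr4*, at 21.7 ± 0.968 RPKM, stood apart from these, and *Tlr1*, *Tlr5* and *Tlr6* were lowest at 9.71 ± 0.337, 9.41 ± 2.06 and 8.32 ± 0.150 RPKM. *Tlr3* was level with *Tlr4* in PP2Ac-WT and 2.55 times *Tlr4* in PP2Ac-KO.

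**Figure D1:**
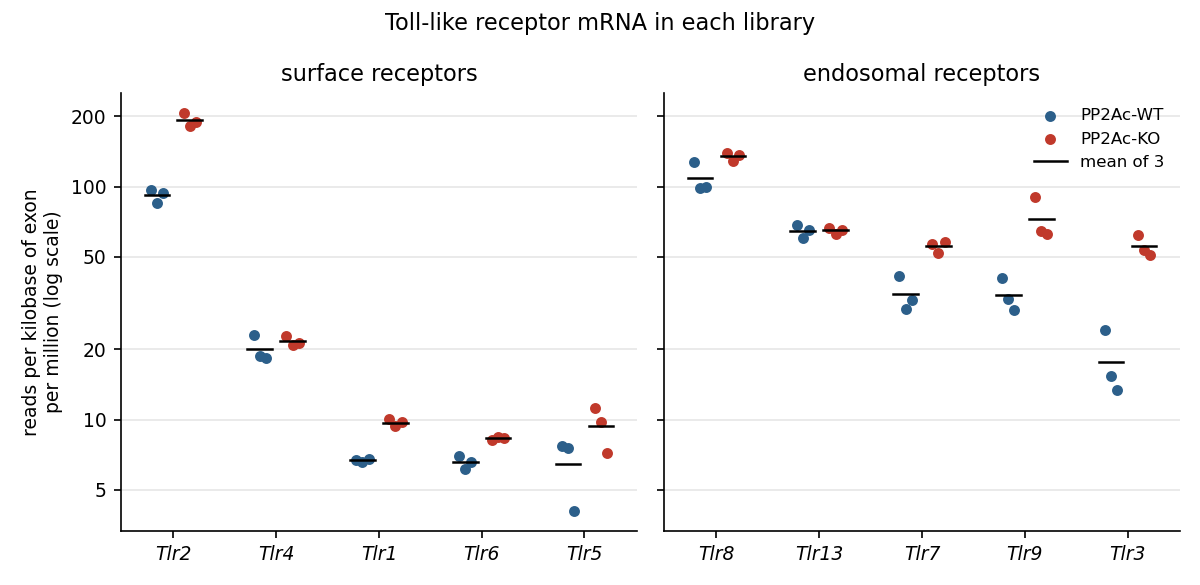
Each point is 1 library, with RPKM on a log axis, surface receptors on the left and endosomal receptors on the right, and black lines at the mean of 3 libraries. *Tlr2*, *Tlr3* and *Tlr9* show the widest gaps between PP2Ac-WT (blue) and PP2Ac-KO (red), and the points of *Tlr13* lie on top of each other, between 60.4 and 68.3 RPKM.

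The bases before the start site of the receptor genes were searched for short motifs of factors that act on this family, since several receptors were higher together. RefSeq (GRCm38.p6) gave windows of 250 bases before the start for 8 of the 10 genes, all but *Tlr4* and *Tlr7*. The core of the interferon-stimulated response element (ISRE), read as GAAA, any 2 bases and GAAA again on either strand, was in 1 of the 8 (*Tlr6*), and 3.5% of 27025 genes held it in windows of this length. The kappaB consensus was in 2 (*Tlr2* and *Tlr3*), against 8.2% of all genes, the GAS motif TTCNNNGAA in 2 (*Tlr1* and *Tlr8*), against 8.1%, and the PU.1 core GAGGAA in 4 (*Tlr1*, *Tlr8*, *Tlr9* and *Tlr13*), against 25.9%. The stretches that hold these letters in the 3 receptor genes with the largest increases, and in *Tlr6*, are given here on the strand of the gene with the matches in capitals. The *Tlr2* stretch (chr3:83841768-83841858, minus strand) holds 2 overlapping kappaB matches that begin 173 and 172 bases before the start, outside annotated exons. In *Tlr3* the match begins 211 bases before the start, within an annotated exon, so only 30 bases are shown (chr8:45410572-45410601, minus strand). The whole *Tlr3* window lies inside the annotated gene, and the bases before the gene's outermost annotated start were not searched. In *Tlr9* the capitals mark the PU.1 core at 112 bases before the start (chr9:106222426-106222551, plus strand). In *Tlr6* they mark 2 overlapping ISRE cores on the opposite strand at 116 and 110 bases before the more downstream of its starts (chr5:64959227-64959322, minus strand). That window also lies inside the annotated gene, and the window before the other *Tlr6* start held no ISRE core. These matches describe the letters only, and sequences that differ from a motif by a base were not counted.
Tlr2: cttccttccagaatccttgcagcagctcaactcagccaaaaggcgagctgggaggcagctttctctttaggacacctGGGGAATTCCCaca
Tlr3: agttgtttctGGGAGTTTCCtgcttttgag
Tlr9: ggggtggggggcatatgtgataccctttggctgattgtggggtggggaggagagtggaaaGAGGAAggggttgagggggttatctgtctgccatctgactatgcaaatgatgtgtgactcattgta
Tlr6: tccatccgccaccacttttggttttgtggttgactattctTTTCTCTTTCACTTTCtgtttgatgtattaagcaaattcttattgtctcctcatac

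Among the surface receptors, 3 of 5 were higher in PP2Ac-KO (*Tlr2*, *Tlr1* and *Tlr6*), against 18.1% of all genes. In these 3 the libraries of the groups did not overlap, as in 24.0% of all genes with PP2Ac-KO above and 26.8% with PP2Ac-KO below. *Tlr2*, the common partner of TLR1 and TLR6 in the recognition of bacterial lipopeptides (chromosome 3, 83836272 to 83841767, mm10), had 206, 183 and 189 RPKM in PP2Ac-KO replicates 1, 2 and 3 and 96.4, 85.0 and 93.8 RPKM in the PP2Ac-WT replicates. The groups were far apart, with every PP2Ac-KO library well above the highest PP2Ac-WT library. The log2FC was 1.07 ± 0.08 (SE, adjusted p = 5.51e-05), and it lay between 1.01 and 1.11 whichever library was left out. *Tlr1*, the partner for triacylated lipopeptides, had 10.03, 9.36 and 9.75 RPKM in PP2Ac-KO and 6.74, 6.60 and 6.75 RPKM in PP2Ac-WT. Its increase was 1.45-fold, a log2FC of 0.54 ± 0.06 (SE, adjusted p = 2.19e-04). *Tlr6*, the partner for diacylated lipopeptides, had 8.16, 8.45 and 8.36 RPKM in PP2Ac-KO and 6.97, 6.16 and 6.58 RPKM in PP2Ac-WT. The groups of *Tlr6* did not overlap either, and its increase was smaller at 1.27-fold (log2FC 0.34 ± 0.07 SE, adjusted p = 0.00332).

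*Tlr1* and *Tlr6* lie near each other on chromosome 5, at 64924679 to 64933563 and 64952031 to 64960097 with 18467 bases between them, and their transcripts are alike. Of the 50-base windows of *Tlr1* transcripts, 15.4% also occur in another gene, and 454 of these 513 windows are shared with *Tlr6*, so that some reads could fit both genes. The reads were longer than these windows, at 150 bases, and how counting treated reads that fit both genes is not given. The ratio of *Tlr1* to *Tlr6* within a library was 1.17 ± 0.0611 in PP2Ac-KO and 1.02 ± 0.0518 in PP2Ac-WT (SD, n = 3, no overlap).

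*Tlr4*, the receptor for lipopolysaccharide (chromosome 4, 66827584 to 66930284), had 22.8, 20.9 and 21.4 RPKM in PP2Ac-KO and 23.1, 18.7 and 18.5 RPKM in PP2Ac-WT. PP2Ac-WT replicate 1 was the highest of the 6 libraries, so the groups overlapped, and the log2FC of 0.11 ± 0.09 (SE, 95% interval -0.10 to 0.32) did not pass the test (adjusted p = 0.37). Without PP2Ac-WT replicate 1, it was 0.23 and passed (adjusted p = 0.0179). *Tlr5*, the receptor for flagellin (chromosome 1, 182954788 to 182976044), was the most scattered surface receptor, with 11.2, 9.81 and 7.18 RPKM in PP2Ac-KO and 7.74, 7.58 and 4.06 RPKM in PP2Ac-WT. In both groups replicate 3 was lowest, and the groups overlapped. The log2FC of *Tlr5* was 0.54 ± 0.23 (SE, adjusted p = 0.101), which became 0.57 in a fit blocked by replicate number and passed there (adjusted p = 5.73e-05). Without PP2Ac-WT replicate 3 it was 0.30 (adjusted p = 0.17), and it did not pass with any library left out.

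**Figure D2:**
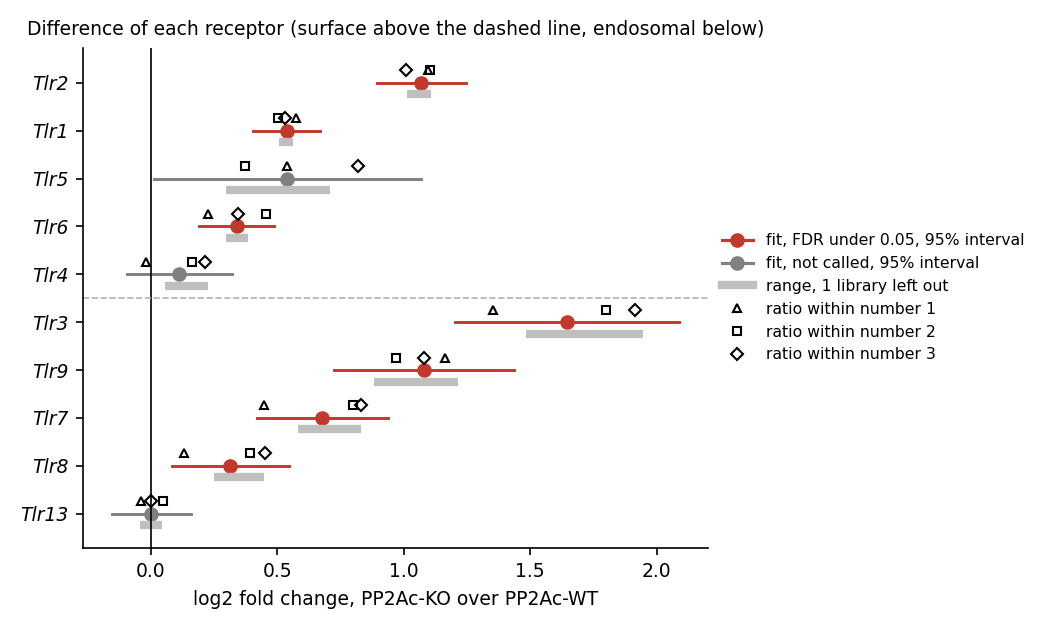
Log2 fold changes of the 10 receptors (PP2Ac-KO over PP2Ac-WT) with 95% intervals, red where FDR was under 0.05 and grey where it was not. Grey bars give the range with each library left out, and open symbols give the ratio of same-numbered libraries, which for *Tlr8* ran from 0.13 to 0.45 and for *Tlr3* from 1.35 to 1.92.

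Among the endosomal receptors, 4 of 5 were higher in PP2Ac-KO, against 18.1% of all genes. These 4 were again without overlap between the groups on the TMM scale, as were 24.0% of all genes with PP2Ac-KO above. *Tlr3*, the receptor for double-stranded RNA (chromosome 8, 45395665 to 45411080), had 62.1, 53.6 and 50.6 RPKM in PP2Ac-KO and 24.4, 15.4 and 13.4 RPKM in PP2Ac-WT. Replicate 1 was highest in both groups, and the groups did not overlap. The log2FC was 1.65 ± 0.20 (SE, adjusted p = 3.15e-04), between 1.48 and 1.95 with any library left out. An antisense gene, *Gm45542*, overlaps 381 bases of its exons and had 1 to 9 counts per library. *Tlr9*, the receptor for unmethylated CpG DNA (chromosome 9, 106222598 to 106226883), had 90.6, 64.7 and 62.3 RPKM in PP2Ac-KO and 40.5, 33.0 and 29.4 RPKM in PP2Ac-WT. PP2Ac-KO replicate 1 stood above the other PP2Ac-KO libraries, and the log2FC of 1.08 ± 0.16 (SE, adjusted p = 8.12e-04) became 0.88 without it, still past the test.

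*Tlr7* and *Tlr8* are neighbours on the X chromosome with 40599 bases between them, at 167304929 to 167330558 and 167242696 to 167264329. TLR7 binds single-stranded RNA, and TLR8 is its closest relative. *Tlr7* had 56.5, 52.0 and 58.1 RPKM in PP2Ac-KO and 41.5, 29.9 and 32.7 RPKM in PP2Ac-WT, an increase of 1.60-fold (log2FC 0.68 ± 0.12 SE, adjusted p = 0.00167). *Tlr8* had 139, 129 and 136 RPKM in PP2Ac-KO and 127, 98.3 and 99.5 RPKM in PP2Ac-WT. PP2Ac-WT replicate 1 lay just under the lowest PP2Ac-KO library. The increase of 1.24-fold (log2FC 0.32 ± 0.10 SE, adjusted p = 0.0375) was the weakest call of the family. It was lost with upper-quartile scaling (adjusted p = 0.0524) and when any single one of PP2Ac-KO replicates 1, 2 and 3 or PP2Ac-WT replicates 2 and 3 was left out (adjusted p from 0.0623 to 0.141). The ratio of *Tlr7* to *Tlr8* within a library, which no scaling changes, was 0.412 ± 0.0128 in PP2Ac-KO and 0.319 ± 0.0135 in PP2Ac-WT (SD, n = 3), and its library values did not overlap.

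*Tlr13*, the receptor for bacterial ribosomal RNA and the third X-linked gene of the family (106143204 to 106160493), had 66.6, 62.5 and 65.3 RPKM in PP2Ac-KO and 68.3, 60.4 and 65.4 RPKM in PP2Ac-WT. The groups overlapped throughout, with a log2FC of 0.00 ± 0.07 (SE, 95% interval -0.16 to 0.16, adjusted p = 0.983). The sign of this difference changed between settings. Relative to *Tlr13* in the same library, *Tlr3* went from 0.272 ± 0.0773 in PP2Ac-WT to 0.856 ± 0.0795 in PP2Ac-KO.

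The classes were set side by side by counts and medians, with no test between them. At FDR under 0.05, 3 of 5 surface and 4 of 5 endosomal receptors were higher. The share was 18.1% of all genes and 30.7% of those counted as deeply as the receptors. This uneven count depended on the fit, since with the replicate block it was 4 in each class and with upper-quartile scaling 3 in each. It was also 3 in each with any one library but PP2Ac-WT replicate 1 left out, and 4 in each without that library. The median log2 fold change was 0.54 for surface and 0.68 for endosomal receptors, and -0.02 for all genes tested (0.06 for genes at least as deeply counted as the lowest receptor). The order of the class medians differed between replicate numbers. In number 1 the surface median was higher, 0.54 against 0.45, and in numbers 2 and 3 the endosomal median was, 0.80 and 0.83 against 0.46 and 0.53. Within each class the range was wide, from 0.11 to 1.07 at the surface and from 0.00 to 1.65 in endosomes. *Tlr3* lay above every surface receptor, and *Tlr13* below. Summed over its genes, the surface class went from 132 ± 8.66 to 242 ± 14.5 RPKM and the endosomal class from 260 ± 36.4 to 383 ± 28.2 RPKM (SD, n = 3). The endosomal share of the sum was 68.2%, 65.7% and 65.0% in the PP2Ac-WT libraries and 61.7%, 61.0% and 61.2% in the PP2Ac-KO libraries. The share was lower in every PP2Ac-KO library, and this direction rested on *Tlr2*. With *Tlr2* left out of the sum, a setting added after the data were seen, the share was 87.1%, 85.9% and 87.0% in PP2Ac-WT and 88.8%, 88.2% and 88.9% in PP2Ac-KO, higher in every PP2Ac-KO library. With any other single receptor left out it stayed lower in every PP2Ac-KO library, but the groups came close in 2 cases. Without *Tlr13* the highest PP2Ac-KO share was 57.44% and the lowest PP2Ac-WT share 57.45%. Without *Tlr8* these were 51.65% and 52.07%. Among single genes, *Tlr2* went from 23.6% ± 1.78 of the summed reads per kilobase in PP2Ac-WT to 30.8% ± 0.247 in PP2Ac-KO, *Tlr3* from 4.46% ± 0.954 to 8.87% ± 0.481, *Tlr8* from 27.6% ± 0.971 to 21.6% ± 0.862 and *Tlr13* from 16.6% ± 1.13 to 10.4% ± 0.447. *Tlr7* had 8.82% ± 0.550 in PP2Ac-WT and 8.90% ± 0.587 in PP2Ac-KO.

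**Figure D3:**
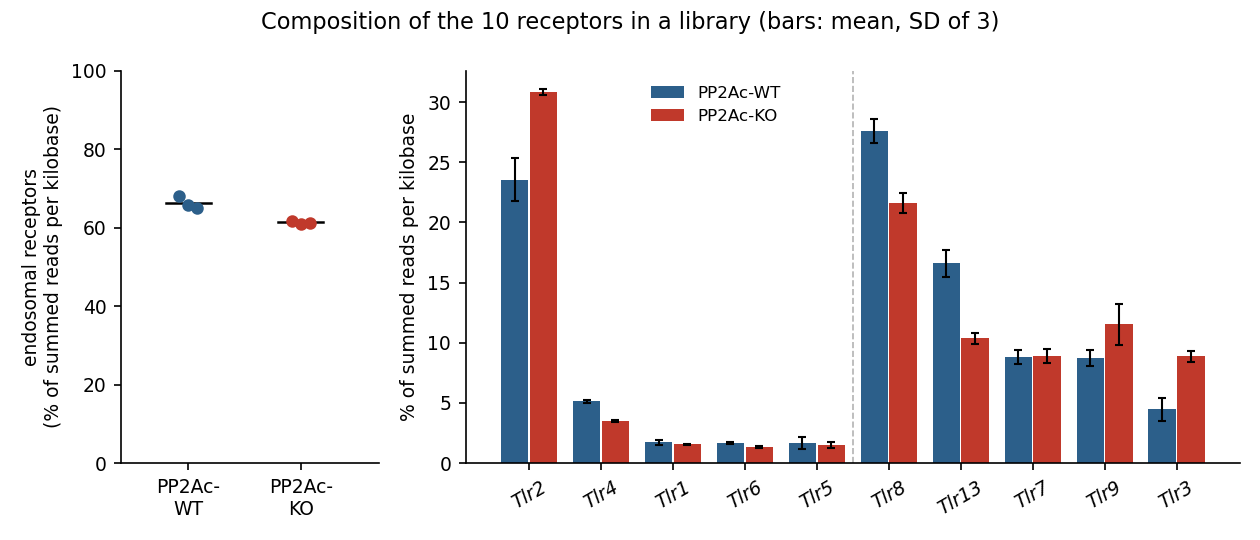
Left, the endosomal share of the summed reads per kilobase of the 10 receptors in each library (points, in percent), with the mean as a line. Right, the share of each receptor as mean and SD of 3 libraries, surface genes left of the dashed line. Larger shares of *Tlr2*, *Tlr3* and *Tlr9* in PP2Ac-KO stand beside smaller shares of *Tlr8* and *Tlr13*, whose mean RPKM did not fall.

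*Tlr11*, an endosomal receptor for parasite profilin, had 179, 113 and 114 counts in PP2Ac-KO and 73, 37 and 38 in PP2Ac-WT. Its groups did not overlap, with 3.46 ± 0.744 against 1.08 ± 0.342 CPM and a log2FC of 1.67 ± 0.24 (SE, adjusted p = 7.98e-04). *Tlr12* had 0 to 6 counts per library and was not tested.

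The partners and signaling genes of the receptors were read from lists of 64 genes in 7 roles, of which 62 were tested. Of these, 29 were higher (46.8%) and 5 lower in PP2Ac-KO, against 18.1% and 19.0% of all genes and 30.7% and 14.6% of those counted as deeply as the receptors. Several listed genes, among them *Ly96*, *Ticam2*, *Irak3* and *Cxcl2*, had fewer reads than the deeper background asks for, so it does not match the lists in depth. Blocked by replicate number, 34 were higher and 8 lower, against 24.4% and 26.4% of all genes in that fit. Among ligand delivery and co-receptor genes, *Ly86* and *Cd180*, whose products MD-1 and RP105 form a TLR4-like complex, were higher, with log2FC of 0.85 and 0.47 (adjusted p = 2.90e-04 and 0.00406). *Ly96*, which encodes the TLR4 partner MD-2, had 10.9 ± 0.582 against 10.1 ± 0.221 CPM, PP2Ac-KO first (adjusted p = 0.271). *Cd36*, a scavenger receptor that assists TLR2, went the other way, with 754 ± 106 against 934 ± 86.9 CPM (log2FC -0.31, adjusted p = 0.053, and 3.13e-04 with the block). It also passed as lower with upper-quartile scaling, DESeq2 and limma-voom (adjusted p = 0.0232, 0.0339 and 0.0484), but not with RLE scaling (adjusted p = 0.0648). It was named after its values were seen. *Cd14*, which hands lipopolysaccharide to TLR4, had 1284 ± 113 and 1122 ± 91.3 CPM (adjusted p = 0.125, and 0.00488 with the block).

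Among the 12 trafficking and processing genes, 4 were higher (33.3%) and 2 lower, near the 30.7% and 14.6% of genes counted as deeply as the receptors. *Unc93b1*, needed by the endosomal receptors to leave the endoplasmic reticulum, went from 864 ± 28.1 to 1142 ± 15.1 CPM, a log2FC of 0.40 ± 0.07 (SE, adjusted p = 0.00132). *Ap3b1*, a subunit of the AP-3 sorting adaptor, rose by a log2FC of 0.60. The chaperone genes *Cnpy3* and *Hsp90b1* had log2FC of 0.09 and 0.05 (adjusted p = 0.266 and 0.626). The cathepsin genes *Ctsk* and *Ctsl*, for proteases that can cleave endosomal receptors, fell by 0.87 and 0.64 on the log2 scale (adjusted p = 3.24e-04 and 2.66e-04).

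Among the adaptors, *Myd88* went from 167 ± 18.2 to 342 ± 13.5 CPM, a log2FC of 1.03 ± 0.09 (SE, adjusted p = 7.42e-05). *Pik3ap1*, which encodes the adaptor BCAP, was also higher, with a log2FC of 0.72. *Ticam2*, which encodes TRAM, the bridge from TLR4 to TRIF, was lower at 11.2 ± 1.91 against 16.8 ± 0.753 CPM (log2FC -0.58 ± 0.12 SE, adjusted p = 0.00425). *Ticam1*, which encodes TRIF, the adaptor of TLR3, had 15.9 ± 1.03 and 16.8 ± 0.749 CPM (95% interval of the log2 fold change -0.25 to 0.09, adjusted p = 0.449). *Tirap* had a log2FC of 0.10 (adjusted p = 0.279).

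Of the 17 kinases and ubiquitin ligases, 5 were higher (29.4%) and 1 lower. The share of higher genes was near the 30.7% of genes counted as deeply as the receptors, of which 14.6% were lower. The counts became 8 and 3 once the replicate number was blocked, against 24.4% and 26.4% of all genes in that fit. The block added *Tab3*, *Chuk* and *Ikbkb* as higher and *Irak1* and *Ikbkg* as lower. *Ikbke*, *Peli1* and *Irak2* were higher by a log2FC of 0.91, 0.69 and 0.64 (adjusted p = 5.51e-05, 5.30e-04 and 1.69e-04). *Irak4*, *Traf6* and *Irak1*, the proximal kinases and ligase of the MyD88 complex, had log2FC of -0.04, 0.06 and -0.10, which did not pass (adjusted p = 0.669, 0.46 and 0.24), though *Irak1* did with the block (adjusted p = 0.0489). Of the 6 transcription factors, all but *Irf3* were higher (83.3%), against 18.1% of all genes and 30.7% of those counted as deeply as the receptors. *Irf7*, the factor through which TLR7 and TLR9 drive type I IFN, went from 605 ± 119 to 1744 ± 140 CPM, a log2FC of 1.53 ± 0.13 (SE, adjusted p = 9.07e-05). *Nfkb1*, *Irf5*, *Rela* and *Irf8* had log2FC of 0.75, 0.74, 0.48 and 0.35.

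Of the 8 inhibitors, 4 were higher and 1 lower. *Tnfaip3*, which encodes the deubiquitinase A20, *Socs1* and *Tnip1* were higher by a log2FC of 1.31, 0.81 and 0.43 (adjusted p = 6.16e-05, 2.85e-04 and 0.00114). *Irak3*, an inhibitor of the IRAK complex, had 17.5 ± 0.637 and 18.9 ± 0.781 CPM (adjusted p = 0.221). Among the cytokine targets, 7 of 8 tested were higher (87.5%), against 18.1% of all genes and 30.7% of those counted as deeply as the receptors. This list also holds *Nfkbia*, which was among those higher, and *Ptgs2*, neither of which encodes a cytokine. With the block all 8 were higher, against 24.4% of all genes in that fit. The gene it added was *Ptgs2* (log2FC 0.39, adjusted p = 0.335, and 0.00698 with the block). Of the 7 lists, the cytokine targets had the highest median log2FC, 1.5. *Cxcl2*, *Il10* and *Tnf* led with log2FC of 1.76, 1.73 and 1.61 (adjusted p = 9.29e-05, 3.10e-04 and 5.40e-05). These targets also respond to STING and to cytokine receptors, and TLR signaling itself was not measured.

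**Figure D4:**
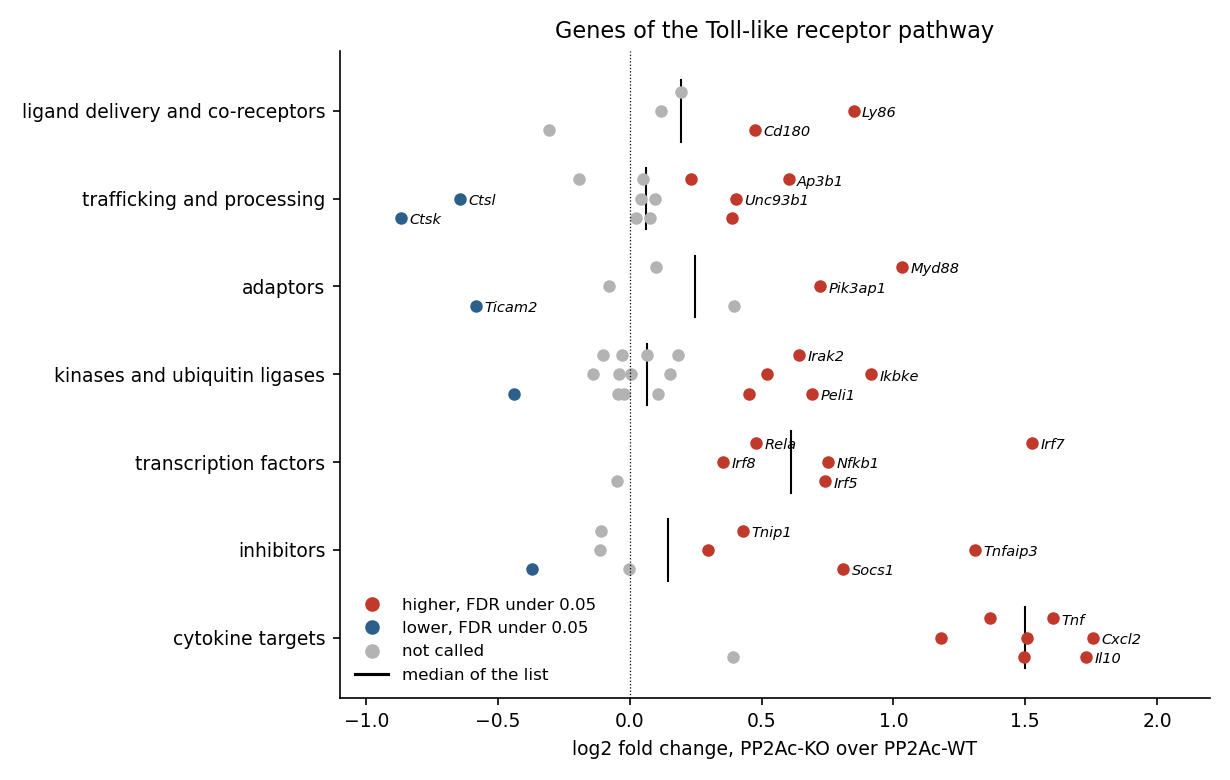
Each point is 1 tested gene, placed by its log2 fold change (PP2Ac-KO over PP2Ac-WT) in 1 of 7 lists, red where higher and blue where lower at FDR under 0.05, with the median of the list as a black line. *Myd88*, *Irf7* and the genes of the cytokine target list lie to the right, and *Ctsk*, *Ctsl* and *Ticam2* to the left of 0.

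The genes whose log2 CPM followed a receptor most closely over the 6 libraries were listed for the 3 receptors with a log2FC of at least 1. For *Tlr3* they were *Ifi205*, *Tifa*, *Parp12*, *Stat2* and *Gbp5* (Pearson r at least 0.9995), for *Tlr2* *Gadd45b*, *Spata13*, *Sh3bp2*, *Tnf* and *Gm11772* (r at least 0.9985), and for *Tlr9* *Csnk1d*, *Crkl*, *Dyrk2*, *Mex3c* and *Phactr1* (r at least 0.9965). With only 6 libraries in 2 genotypes such values are common, and 1512, 1053 and 1332 genes had r over 0.95 with *Tlr3*, *Tlr2* and *Tlr9*.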

How the data were processed

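Bulk RNA-Seq was analysed for 6 libraries, 3 PP2Ac-KO and 3 PP2Ac-WT. The authors deposited a table of raw read counts per gene on mm10, without normalization. The submitters' processing notes list fastp 0.20.0, kallisto 0.46.1, STAR 2.7.1a, HTSeq 0.11.2, edgeR 3.34.0 and limma 3.48.3, without their roles. The annotation release and the strand setting are not given in the sources used here. Groups and replicate numbers came from the titles.

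The counts were fitted with edgeR 4.0.16 under R 4.3.3 (filterByExpr with a minimum count of 10 and total of 15, TMM scaling, glmQLFit and glmQLFTest, Benjamini-Hochberg adjustment over 13680 genes), for genotype alone. CPM used the TMM library sizes, and RPKM divided them by GENCODE M21 exon length. That annotation of GRCm38 holds 98.3% of the symbols. Correlations used log2(CPM + 0.5). An exact permutation test of 3 against 3 libraries cannot go below p = 0.1, so p-values come from fits over all genes. Same-numbered libraries deviated together from their group means (correlations of 0.289, 0.148 and 0.337 over genes), so the replicate number of the labels may pair them. Correlations between different-numbered libraries were not computed, so this was not settled. The main fit leaves the number out, and the fit with it as a block is given where it changes a call. Alternatives were this block, RLE and upper-quartile scaling, other filters, DESeq2 1.42.0, limma-voom (limma 3.58.1) and each library left out. Scripts were tested on simulated data. Members and lists were chosen with earlier results of these data known. Named genes were the members, *Ppp2ca*, the genes that define each list's role, and up to 3 further called genes per list with the largest change. *Cd36*, *Ptgs2*, *Nfkbia*, *Tab3*, *Chuk*, *Ikbkb*, *Ikbkg*, *Irf3* and *Gm45542* were named after their values were seen, and marker genes for checks.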

Additional observations from a re-analysis of the deposited data

How the results depend on the processing

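The 10 receptor genes were refitted under 13 alternatives, and 115 of 130 values kept their direction and their side of the threshold. Receptors called higher numbered 8 with the replicate block, 6 with upper-quartile scaling and 6 to 8 with 1 library left out (3 to 4 at the surface, 3 to 4 in endosomes), and 0 were lower in each. Where a change beyond 1 on the log2 scale and an FDR below 0.01 were asked for, they numbered 3, of which 1 at the surface and 2 in endosomes. The calls that changed were those of *Tlr4*, *Tlr5* (also called without a filter on low counts) and *Tlr8*. *Tlr13*, near 0 throughout, was negative with upper-quartile scaling (-0.061), without a filter (-0.005) and with 10 counts in every library (-0.001), and ran from -0.043 to 0.043 with 1 library left out. *Hsp90b1* was -0.012 with upper-quartile scaling, and *Irak4* ran from -0.078 to 0.0 with 1 library left out. Pathway genes called lower rose from 5 to 8 with the replicate block. The median log2 fold change of the surface receptors was 0.47 with upper-quartile scaling and 0.343 to 0.543 with 1 library left out, lowest without PP2Ac-WT replicate 3. Without division by length, the endosomal share was 65.4% in PP2Ac-KO and 68.5% in PP2Ac-WT. With *Tlr2* left out of the sum, a choice made after seeing the data, it was 88.6% in PP2Ac-KO and 86.7% in PP2Ac-WT, the opposite order. The cause of the other shifts was not tested. Among the receptors, the replicate block changed the call of *Tlr5* and no other.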
